A study of Mus musculus with 6 samples.

Results

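The antioxidant and glutathione enzymes examined here are 39 genes of the 22942 genes in the tables. They comprise the transcription factor gene Nfe2l2 (NRF2) and its sensor Keap1, superoxide dismutases and catalase, glutathione peroxidases, peroxiredoxins, the thioredoxin system, the enzymes that make and recycle glutathione, and glutathione transferases with Nqo1. Members were chosen by name, and each was represented by its transcript with the highest mean RPKM (a read count divided by transcript length in kilobases and by library size) over the 6 libraries. All 39 were found, and 37 passed a filter on low values, which asked for 0.1 RPKM or more in 3 or more libraries. Glutathione peroxidase 7 (Gpx7) and Gstk1 did not pass.

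The cells were C3H-10T1/2, a mouse mesenchymal stem-like line that forms fat cells in culture. Transcriptomes were made at day 6 of brown differentiation from 3 cultures that received the solvent DMSO and 3 that received 4 uM of 611 (Cpd A). This compound blocks LSD1, an enzyme that takes methyl groups off histone H3. Both groups were given the same differentiation medium: rosiglitazone at 1 uM, T3 at 1 nM and insulin at 20 nM throughout, with dexamethasone (1 uM), indomethacin (125 uM) and isobutylmethylxanthine (0.5 mM) present for the first 72 h, in 10% fetal bovine serum. The labels place the induction of differentiation 48 h after treatment in both groups. They disagree on when treatment began, at seeding or 12 h later. A cell line is the only source, so the 3 cultures of a group share 1 genetic background. P-values measure only the spread between these cultures.

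Cells dispose of superoxide by dismutation to hydrogen peroxide, which catalase, the glutathione peroxidases and the peroxiredoxins then reduce. Glutathione and thioredoxin supply the electrons and are themselves regenerated by reductases that draw on NADPH. KEAP1 holds NRF2 for degradation, and NRF2 that escapes pairs with small MAF proteins at the antioxidant response element in the promoters of many of these enzymes. Mitochondria have their own set of dismutase, peroxiredoxin, thioredoxin and glutaredoxin. Fat cells are known for a large NADPH-generating capacity, which fatty acid synthesis also draws on.

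With 611, 13 of the 37 tested members (35.1%) were higher and 16 (43.2%) were lower, while 8 did not pass the threshold of an adjusted p of 0.05 (limma on log2(RPKM + 1), Benjamini-Hochberg adjusted). Over all 13829 genes tested, 41.6% were higher and 17.7% were lower. The median log2 fold change was -0.02 over the members and 0.10 over all genes. The all-gene median is not at 0, and scaling the libraries by their median of ratios moved it by 0.11. After that scaling, 28.5% of all genes were higher and 28.6% lower, against 8 higher members (21.6%) and 19 lower members (51.4%). The 16 lower members remained lower. The 8 that stayed higher were Nfe2l2, Sod3, Prdx4, Gsta4, Gstm1, Gstm2, Gstt1 and Nqo1. Prdx2, Txn1, Txnrd1, Gsr and Glrx2 were called higher only without the scaling, and Gpx1, Prdx1 and Glrx were called lower only with it.

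Most changes were small. An absolute log2 fold change of at least 0.5 was seen in 9 of the 37 members (24.3%) and in 18.9% of all genes tested, and one of at least 1 in 2 members (5.41%), Gsta3 and Gstt1, and in 4.24% of all genes. The summed RPKM of the members was 5428 ± 152.5 (SD, n = 3) with DMSO and 4395 ± 107.1 with 611, 1.24-fold lower. As a share of the summed RPKM of all genes it was 1.55% with DMSO and 1.31% with 611. Gpx4, Mgst1 and Gpx8 together made up 75.9% of the difference of 1033 RPKM. The 6 highest members, Gpx4, Mgst1, Prdx1, Gpx8, Sod1 and Mgst3, held 65.9% of the sum with DMSO and 59.4% with 611, and all of them but Prdx1 were called lower. Keap1, Gpx4, Txnrd1, Txnip, Glrx2 and Gsta3 have 2 to 4 transcripts in the tables, which share reads. Besides the members for which it is stated below, Prdx1, Txnrd1, Txnip, Gpx7, Gclm, Gss, Gsr, Glrx and Gsta3 overlap another gene in the genome.

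**Figure D1:**
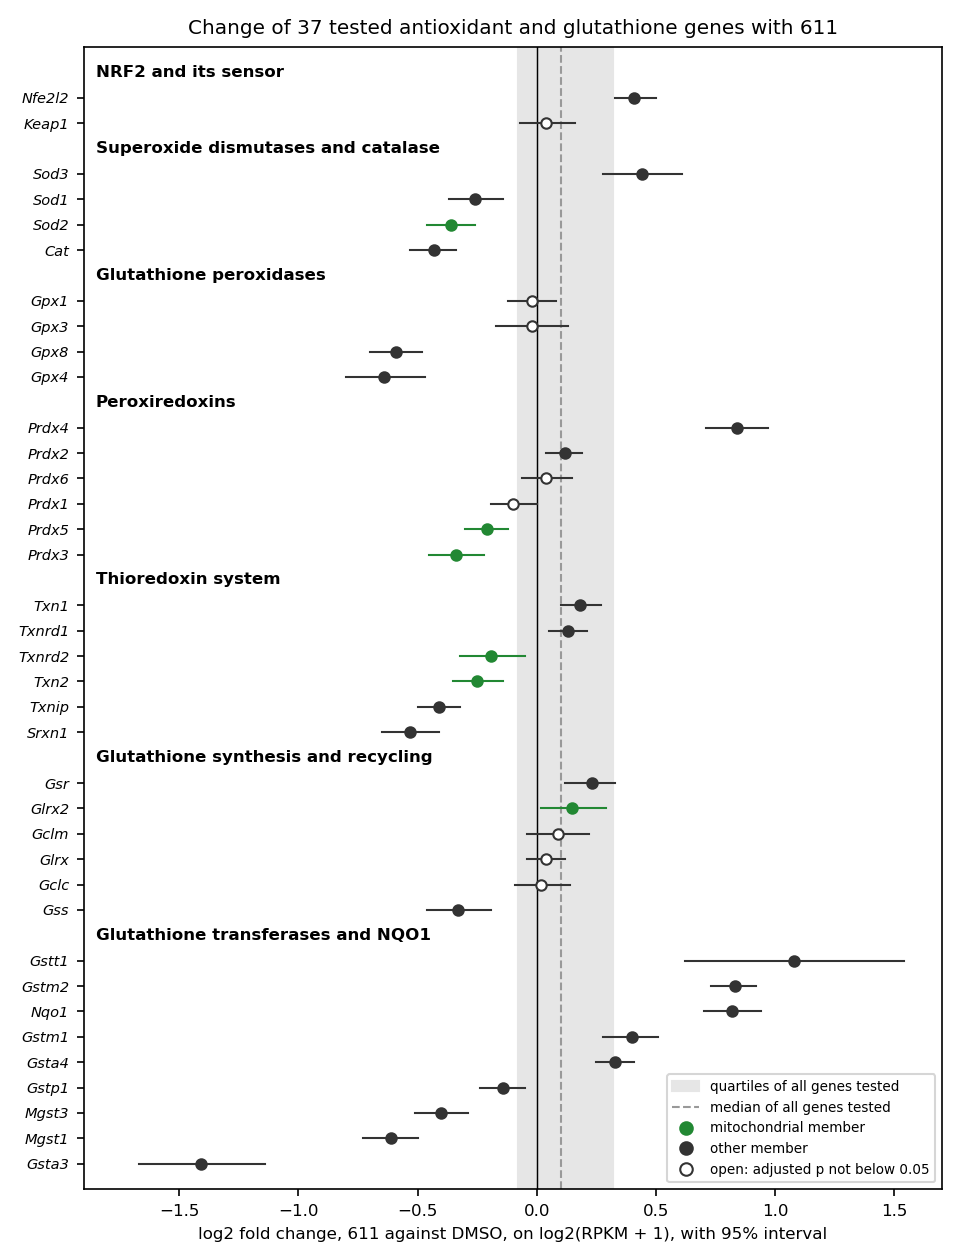
Log2 fold change of 611 over DMSO, on the log2(RPKM + 1) scale, for the 37 tested members by role, with 95% confidence intervals; open symbols did not pass an adjusted p of 0.05, green marks mitochondrial members, and the grey band and dashed line are the quartiles and median of all genes tested. Gsta3 lies farthest to the lower side at -1.41 and Gstt1 farthest to the higher side at 1.08.

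Marker genes of differentiation differed between the groups as well. All 12 general adipocyte markers fell (median log2 fold change -0.82), and their summed RPKM lay between 29450 and 30680 with DMSO and between 15250 and 16870 with 611. Among progenitor and fibroblast markers, 10 of 11 tested rose (median 1.29), with a sum of 866.7 to 944.7 RPKM with DMSO and 1990 to 2134 with 611. Of 8 tested brown adipocyte markers 5 fell and 1 rose, and their sum was 226.7 to 271.7 RPKM with DMSO and 86.8 to 105.8 with 611. The brown marker that rose, Ebf2, named here after its values were seen, was not called after scaling (adjusted p = 0.066, with 0.013 to 0.066 over the alternatives), while 5 were still lower. All 10 cell cycle genes rose, also after scaling (median 1.12 before it), with a sum of 119.4 to 126.8 RPKM with DMSO and 254.3 to 289.9 with 611. Ucp1, which defines thermogenic brown fat cells, was listed at 0 in all 6 libraries. Whether such a 0 is a measured level or a value that could not be estimated is not known. The part of these marker shifts in the results on the members was not tested. In bulk samples, fewer cells of a type and less RNA per cell cannot be told apart.

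Macrophage, endothelial and skeletal muscle markers were low. The summed macrophage markers were 0.945 to 1.24 RPKM with DMSO and 1.46 to 2.53 with 611, with Itgam, Ptprc, C1qa and C1qc listed at 0. The summed endothelial markers were 0.146 to 0.286 RPKM with DMSO and 0.325 to 0.348 with 611, with Cdh5, Kdr and Tie1 listed at 0. The summed skeletal muscle markers were 2.56 to 3.41 RPKM with DMSO and 0.454 to 0.879 with 611, with Myod1, Myog and Ckm listed at 0. The doubt given above for Ucp1 holds for all markers listed at 0. Osteoblast and cartilage markers summed to 13.3 to 13.9 RPKM with DMSO and 29.3 to 30.9 with 611. Of the 4 that were tested, Sox9, Runx2 and Col2a1 rose and Alpl fell (median log2 fold change 1.02), and Sox9 was the highest at 8.63 ± 0.453 RPKM with DMSO and 18.95 ± 0.920 with 611. Library totals recovered from the values lay between 3.89e+07 and 4.12e+07, and 15732 to 16021 genes were above 0 in a library. No library stood apart from its group in these totals or gene counts.

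Nfe2l2, the gene of the transcription factor NRF2, rose. It was measured at 31.7, 31.8 and 31.8 RPKM in DMSO replicates 1, 2 and 3 and at 41.2, 43.3 and 43.5 in 611 replicates 1, 2 and 3. The 3 DMSO cultures lay within a narrow band and every 611 culture was above it. The means differed 1.34-fold, with a log2 fold change of 0.41 ± 0.036 (SE) and an adjusted p of 1.9e-05 (limma).

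Keap1, which presents NRF2 for ubiquitination, was at 16.3, 17.4 and 16.1 RPKM with DMSO and at 16.4, 18.1 and 16.9 with 611. The groups overlapped, and its log2 fold change of 0.04 had a 95% interval from -0.07 to 0.16 (adjusted p = 0.49). The ratio of Keap1 to Nfe2l2, which no scaling of the libraries can alter, was 0.522 ± 0.021 with DMSO and 0.401 ± 0.015 with 611 without overlap. With 3 cultures against 3, an exact permutation test cannot give a two-sided p below 0.10, or below 0.25 within the 3 same-numbered pairs, so such ratios are given here as descriptions.

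Promoter sequence is shown for members in which the core of the antioxidant response element or an AP-1 site was found, Glrx excepted. These patterns were searched because NRF2 and AP-1 are factors known to act on many of these genes. RefSeq windows (build GRCm38.p6) from 250 bases before to 50 bases after the annotated start were at hand for 34 of the 39 members. The core was searched as TGACNNNGC on both strands and occurred in 8 of the 34 members (23.5%), and in 14% of all 27025 genes with a window. The AP-1 site was searched as TGANTCA on both strands and occurred in 4 members (11.8%) and in 8.97% of all genes. The letters of the patterns overlap, and 1 stretch can match both. In the sequences below, each read 5′ to 3′ on the strand of its gene and ending before the start, capitals mark the match to the core. A core on the opposite strand reads as its reverse complement.
Gsta3: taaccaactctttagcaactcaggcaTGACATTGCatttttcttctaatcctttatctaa
Mgst1: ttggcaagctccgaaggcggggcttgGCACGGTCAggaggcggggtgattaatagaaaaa
Sod1: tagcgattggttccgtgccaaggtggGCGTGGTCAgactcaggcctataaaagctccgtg
Nfe2l2: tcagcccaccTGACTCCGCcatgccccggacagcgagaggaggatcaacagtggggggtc
Txnrd1: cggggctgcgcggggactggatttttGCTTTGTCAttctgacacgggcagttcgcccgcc
Prdx1: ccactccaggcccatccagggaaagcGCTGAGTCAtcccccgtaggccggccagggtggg
Gclm: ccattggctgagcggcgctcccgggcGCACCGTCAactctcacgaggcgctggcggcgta

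These stretches lie at chr1:21240438-21240497 (plus strand) for Gsta3, chr6:138140445-138140504 (plus) for Mgst1, chr16:90220680-90220739 (plus) for Sod1 and chr2:75704854-75704913 (minus) for Nfe2l2. They lie at chr10:82859088-82859147 (plus) for Txnrd1, chr4:116685440-116685499 (plus) for Prdx1 and chr3:122245397-122245456 (plus) for Gclm. Srxn1 was the eighth member, and its core lies 28 bases after the start. Members that hold the core did not share a direction: Gsta3, Mgst1, Sod1 and Srxn1 were lower with 611, Nfe2l2 and Txnrd1 were higher, and Gclm and Prdx1 were not called. Nqo1 rose and has neither pattern in its window, and no match says only that these letters are absent from these 300 bases.

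The AP-1 pattern was found in Srxn1, Prdx1, Glrx and Gstp1. Prdx1 has 2 matches, of which 1 overlaps the core shown above. Of these 4 members, Srxn1 and Gstp1 were lower with 611, and Prdx1 and Glrx were not called. Srxn1 and Gstp1 are shown, picked for their direction, with the AP-1 matches in capitals.
Srxn1: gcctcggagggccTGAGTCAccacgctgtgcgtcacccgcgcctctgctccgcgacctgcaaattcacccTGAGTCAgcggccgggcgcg
Gstp1: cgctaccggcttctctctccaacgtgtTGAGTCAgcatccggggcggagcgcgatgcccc

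The Srxn1 stretch is chr2:152105409-152105498 (plus strand) and the Gstp1 stretch is chr19:4037954-4038013 (minus). In Gstp1, and in the Srxn1 match nearer the start, the AP-1 letters are followed by gc. These stretches differ from the core only in reading TGAG in place of TGAC, so the search did not count them as a core. A match describes the letters and is neither a shown binding site nor a cause of the changes.

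Among the enzymes that remove superoxide and hydrogen peroxide, catalase and the intracellular dismutases fell and the secreted dismutase rose. Catalase (Cat), the peroxisomal enzyme that splits hydrogen peroxide, was at 267, 265.2 and 268.8 RPKM with DMSO and at 205.5, 188.9 and 197.9 with 611. The groups were far apart, 1.35-fold, with a log2 fold change of -0.43 ± 0.041 (SE) and an adjusted p of 2.8e-05.

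Sod1, the copper-zinc dismutase of the cytosol and the most abundant of the 3 dismutases, was at 380.4, 377.9 and 362.1 RPKM with DMSO and at 333.6, 303.7 and 299.7 with 611. Every 611 culture was below every DMSO culture, with a log2 fold change of -0.26 ± 0.050 (SE) and an adjusted p of 0.0021. Of the 50-base stretches of its transcript, 23.1% also occur in a transcript of another gene, among them Gm8566, so its level is uncertain.

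Sod2, the manganese dismutase of the mitochondrial matrix, was at 50.2, 47.1 and 49.3 RPKM with DMSO and at 39.97, 36.61 and 36.98 with 611. It fell by 0.36 on the log2 scale (SE 0.045, adjusted p = 1.5e-04). Sod3, the dismutase secreted to the extracellular matrix, was at 44.3, 48.4 and 40.8 RPKM with DMSO and at 57.3, 66.4 and 59.2 with 611. Sod3 was the only one of these 4 genes that rose, 1.37-fold, with an adjusted p of 7.1e-04. Sod3 was above Sod2 in DMSO replicate 2 and below it in the other DMSO cultures, and with 611 it was above Sod2 in all 3 cultures.

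**Figure D2:**
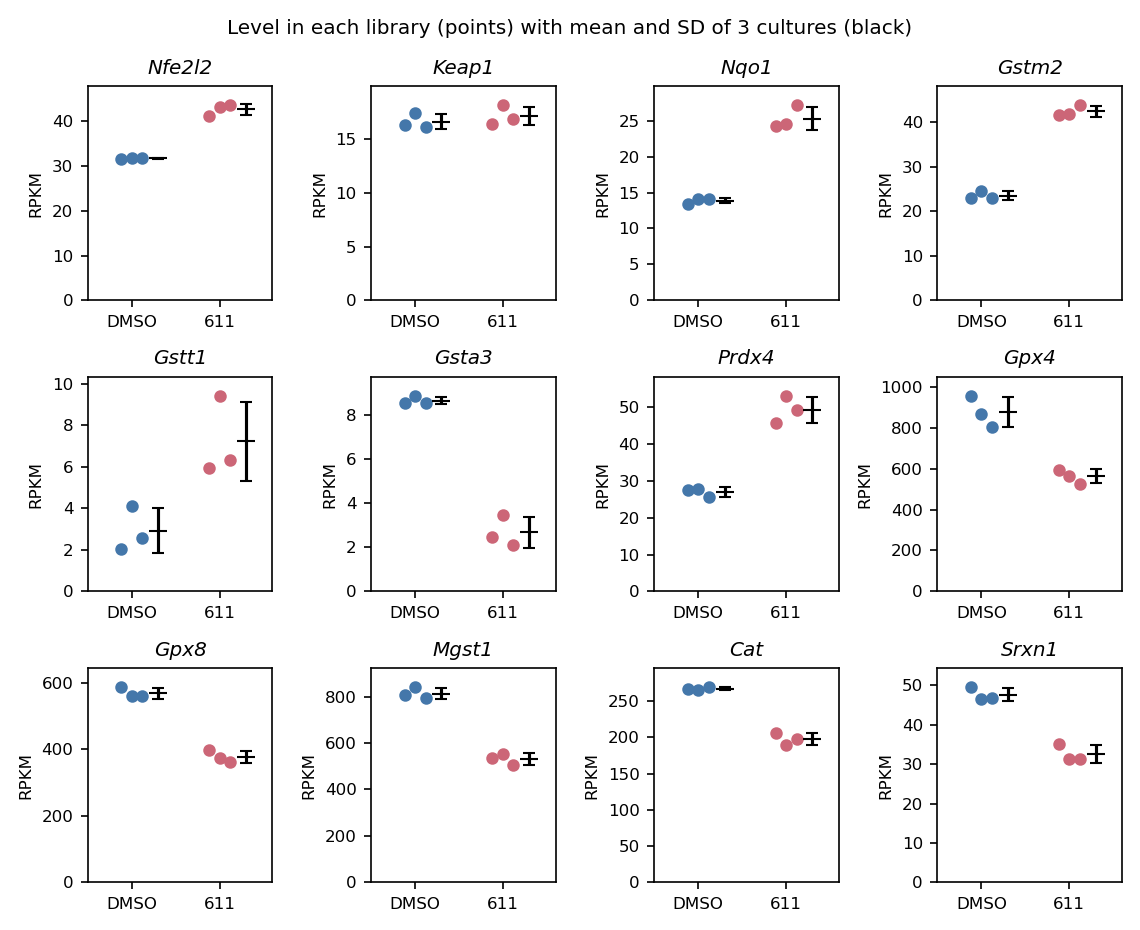
RPKM in each of the 6 libraries for selected members, DMSO and 611 side by side, with the mean and SD of 3 cultures in black; every axis starts at 0. The groups overlap for Keap1 and for none of the other 11 genes shown.

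The glutathione peroxidases use glutathione or other thiols to reduce peroxides. Gpx4, the enzyme that repairs oxidised membrane lipids and guards against ferroptosis, had the highest mean of all 39 members. It was at 952.7, 869.4 and 804.8 RPKM with DMSO and at 594.3, 565.7 and 526.9 with 611. The lowest DMSO value was well above the highest 611 value, and the means differed 1.56-fold (log2 fold change -0.64 ± 0.071 SE, adjusted p = 7.9e-05). A pseudogene, Gpx4-ps2, shares 68.9% of the 50-base stretches of this transcript, so its reads cannot be told apart from it.

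Gpx8, a thiol peroxidase of the endoplasmic reticulum membrane, fell in parallel. It was at 586, 559.3 and 559.1 RPKM with DMSO and at 397.4, 374.6 and 361.7 with 611, 1.5-fold lower (adjusted p = 1.3e-05). The ratio of Gpx8 to Gpx4 overlapped between the groups, at 0.651 ± 0.04 with DMSO and 0.672 ± 0.012 with 611. Gpx8 overlaps Cdc20b in the genome, and whether the counting used strand is not known.

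Gpx1, the broadly expressed cytosolic peroxidase, was at 70.6 ± 2.30 RPKM with DMSO and 69.5 ± 3.12 with 611 and did not pass the threshold (adjusted p = 0.68). The log2 fold change had a 95% interval from -0.12 to 0.08, and after scaling it was -0.17 with an adjusted p of 0.014 (0.014 to 0.98 over the alternatives). Gpx3, the secreted plasma peroxidase, rested on 3, 11 and 7 reads with DMSO and 3, 9 and 7 with 611. Gpx7, the soluble relative of Gpx8, rested on 1, 4 and 4 reads with DMSO and 3, 5 and 8 with 611 and was not tested. A difference in either was not detectable at this depth.

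The 6 peroxiredoxins, which reduce hydrogen peroxide with a reactive cysteine, did not move together. Prdx4, the form of the endoplasmic reticulum, was at 27.6, 27.9 and 25.5 RPKM with DMSO and at 45.6, 52.8 and 49.1 with 611. Its groups were clearly separate, 1.82-fold (log2 fold change 0.84 ± 0.058 SE, adjusted p = 5.3e-06). No other peroxiredoxin had so large a change.

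Prdx3, the mitochondrial peroxiredoxin, was at 195.3, 182 and 183.9 RPKM with DMSO and at 157.2, 140.6 and 145.8 with 611. It fell by 0.34 on the log2 scale (SE 0.050, adjusted p = 4.3e-04) with no overlap. Prdx5, which is placed in mitochondria and also in peroxisomes and the cytosol, was at 117.8, 119.7 and 122 RPKM with DMSO and at 107.7, 103 and 99.8 with 611. Its decrease was smaller, with a log2 fold change of -0.21 ± 0.039 (SE) and an adjusted p of 0.0016, and every 611 culture was below the DMSO cultures. Prdx5 overlaps Trmt112 in the genome.

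Prdx1, the abundant cytosolic form, was at 608.2, 630.6 and 605.5 RPKM with DMSO and at 575.9, 563.9 and 583.7 with 611. Its groups did not overlap, but the log2 fold change of -0.10 ± 0.042 (SE) gave an adjusted p of 0.072. With the replicate number as a block the adjusted p was 0.043, and after scaling it was 0.0011, within a range of 0.0011 to 0.20 over the alternatives. Prdx2, the other main cytosolic form, was at 123.4 ± 1.74 RPKM with DMSO and 134.1 ± 1.44 with 611 (adjusted p = 0.012), and after scaling its log2 fold change was -0.03 with an adjusted p of 0.45 (0.0064 to 0.45 over the alternatives). Prdx6, which uses glutathione, was at 29.5 ± 1.48 and 30.4 ± 1.02 RPKM, and its log2 fold change had a 95% interval from -0.06 to 0.15.

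In the thioredoxin system, the cytosolic carrier and the mitochondrial carrier moved in opposite directions. Txn1, the cytosolic and nuclear thioredoxin, was at 100.2, 100.7 and 96.3 RPKM with DMSO and at 112.8, 109 and 116.1 with 611 (log2 fold change 0.18 ± 0.038 SE, adjusted p = 0.003). Txn2, the mitochondrial thioredoxin, was at 128.4, 123 and 118.4 RPKM with DMSO and at 109, 103.1 and 99.3 with 611 (log2 fold change -0.25 ± 0.047 SE, adjusted p = 0.0018). Txn2 was above Txn1 in each DMSO culture and below it in each 611 culture. The rise of Txn1 is relative to the library total, and after scaling its log2 fold change was 0.03 with an adjusted p of 0.51 (0.0028 to 0.51 over the alternatives).

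The reductases of thioredoxin are selenoproteins. Txnrd1, the cytosolic reductase, was at 31.2 ± 0.308 RPKM with DMSO and 34.3 ± 0.257 with 611 (adjusted p = 0.0086), and after scaling its log2 fold change was -0.02 with an adjusted p of 0.69 (0.0042 to 0.69 over the alternatives). Txnrd2, the mitochondrial reductase, was at 7.72, 7.21 and 7.53 RPKM with DMSO and at 6.86, 6.61 and 5.94 with 611. The groups did not overlap, with a log2 fold change of -0.19 ± 0.060 (SE) and an adjusted p of 0.026. That call was lost when DMSO replicate 1 (adjusted p = 0.083), DMSO replicate 3 (0.067) or 611 replicate 3 (0.084) was left out, and over all alternatives the adjusted p ran from 0.0028 to 0.084.

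Srxn1, sulfiredoxin, which restores overoxidised peroxiredoxins and is a known NRF2 and AP-1 target, had the largest change of the thioredoxin system. It was at 49.5, 46.4 and 46.8 RPKM with DMSO and at 35.2, 31.3 and 31.3 with 611. All 611 cultures lay below all DMSO cultures, 1.46-fold in the means (log2 fold change -0.53 ± 0.052 SE, adjusted p = 3.7e-05). Txnip, which binds and inhibits thioredoxin, fell from 117 ± 3.64 to 87.7 ± 2.32 RPKM (adjusted p = 2.7e-05).

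The genes for the making of glutathione did not move together. Gclc, the catalytic subunit of the rate-limiting glutamate-cysteine ligase, was at 9.98 ± 0.496 RPKM with DMSO and 10.2 ± 0.324 with 611 (adjusted p = 0.7). Gclm, its modifier subunit, was at 21.4 ± 0.887 and 22.8 ± 1.68 RPKM (adjusted p = 0.21), and it passed the threshold only without 611 replicate 2 (adjusted p = 0.035, with 0.035 to 0.49 over the alternatives). Their 95% intervals for the log2 fold change ran from -0.09 to 0.14 and from -0.04 to 0.22, and the ratio of Gclc to Gclm overlapped between the groups.

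Gss, the synthetase of the second step, was at 15.1, 13.1 and 14.0 RPKM with DMSO and at 11.5, 10.3 and 11.2 with 611. It fell without overlap, by 0.33 on the log2 scale (SE 0.061, adjusted p = 0.0016). Gsr, the NADPH-dependent reductase that recycles oxidised glutathione, was at 13.3, 12.4 and 12.4 RPKM with DMSO and at 15.3, 14.6 and 15.2 with 611. It was higher without overlap (log2 fold change 0.23 ± 0.045 SE, adjusted p = 0.0023), and after scaling the log2 fold change was 0.09 with an adjusted p of 0.17 (0.0013 to 0.17 over the alternatives).

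The glutaredoxins remove glutathione from proteins. Glrx, the cytosolic form, was at 112.2, 111.2 and 107.5 RPKM with DMSO and at 115, 114.4 and 111.7 with 611. Its groups overlapped (adjusted p = 0.31), and after scaling it was called lower at -0.11 (adjusted p = 0.037, with 0.037 to 0.61 over the alternatives). Glrx2, the mitochondrial form, was at 3.77, 4.23 and 4.01 RPKM with DMSO and at 4.51, 4.49 and 4.68 with 611. Its log2 fold change of 0.15 ± 0.058 (SE) had an adjusted p of 0.046, which was 0.66 after scaling and ran from 0.013 to 0.66 over the alternatives. The call was lost after scaling, without a filter, and when any library but DMSO replicate 2 was left out.

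Glutathione transferases conjugate glutathione to reactive compounds, and the family moved in both directions. Gsta3, an alpha-class transferase, was at 8.59, 8.86 and 8.57 RPKM with DMSO and at 2.46, 3.48 and 2.13 with 611. The DMSO cultures were nearly equal and the 611 cultures were all far below them, 3.23-fold in the means, the largest decrease among the tested members (log2 fold change -1.41 ± 0.116 SE, adjusted p = 1.4e-05). Gsta4, which acts on lipid aldehydes such as 4-hydroxynonenal, rose from 69.2 ± 1.91 to 87.0 ± 0.125 RPKM (adjusted p = 5.4e-05).

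Gstt1, a theta-class transferase, was at 2.04, 4.13 and 2.59 RPKM with DMSO and at 5.93, 9.39 and 6.34 with 611. Replicate 2 was highest in both groups, yet the groups did not overlap. The means differed 2.48-fold, the largest increase among the tested members (log2 fold change 1.08 ± 0.203 SE, adjusted p = 0.0017).

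The mu-class members also rose. Gstm2 went from 23.4 ± 0.978 to 42.3 ± 1.17 RPKM, 1.81-fold (adjusted p = 1.2e-06), and Gstm1 from 49.95 ± 3.09 to 66.0 ± 2.66 RPKM (adjusted p = 2e-04). Gstm1 was 2.13 ± 0.078 times Gstm2 with DMSO and 1.56 ± 0.085 times with 611. Of the stretches of Gstm1, 23.1% also occur in other genes, which leaves its level uncertain. The ratio of Gstm2 to Gsta3 was 2.7 ± 0.062 with DMSO and 16.5 ± 4.3 with 611.

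The microsomal transferases, membrane proteins that also act as peroxidases, were the most abundant of the family. Mgst1 was at 807, 838.8 and 791.8 RPKM with DMSO and at 536.5, 554.5 and 505.2 with 611. The groups were widely separated, 1.53-fold (log2 fold change -0.61 ± 0.050 SE, adjusted p = 1.3e-05). Mgst3 fell as well, from 332.6 ± 18.0 to 252.2 ± 5.08 RPKM (adjusted p = 1.2e-04).

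Gstp1, the pi-class transferase, was at 118.4 ± 2.23 RPKM with DMSO and 107.4 ± 4.85 with 611 (log2 fold change -0.14, adjusted p = 0.017). That call was lost without DMSO replicate 1 (adjusted p = 0.066) or 611 replicate 3 (0.056), the range over the alternatives being 6.4e-04 to 0.066, and 62.3% of its stretches are shared with Gstp2. Nqo1, the quinone reductase that is a standard readout of NRF2, rose from 13.9 ± 0.389 to 25.3 ± 1.59 RPKM, 1.82-fold (adjusted p = 3.2e-06). Nqo1 and Srxn1 thus changed in opposite directions, and their ratio was 0.292 ± 0.018 with DMSO and 0.779 ± 0.088 with 611.

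The mitochondrial enzymes, taken apart, were Sod2, Prdx3, Prdx5, Txn2, Txnrd2, Glrx2 and Gstk1. Of the 6 that were tested, 5 were lower (83.3%) and Glrx2 was higher, the median log2 fold change being -0.23. Of the 31 other members tested, 12 were higher (38.7%), 11 were lower (35.5%) and 8 were not called, with a median of 0.04. Over all genes tested, 41.6% were higher and 17.7% lower, with a median of 0.10. After scaling the mitochondrial counts were 0 higher and 5 lower (median -0.38). The others were then 8 higher (25.8%) and 14 lower (45.2%), with a median of -0.10, against 28.5% higher and 28.6% lower over all genes. Leaving out Prdx5 and Gstk1, which are also found elsewhere in the cell, gave 1 higher and 4 lower of 5, with a median of -0.25. The split counts each gene in 1 part only, and products of 1 gene in different compartments were not told apart. Gpx4 and Mgst1, the members with the highest means, were counted with the others throughout. Gstk1, a transferase of mitochondria and peroxisomes, was listed at 0 in all 6 libraries, where 3 reads would have been 0.0783 to 0.083 RPKM at its GENCODE transcript length. Whether that 0 is a measured level or a value that could not be estimated is not known.

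The summed RPKM was lower with 611 in the mitochondrial and in the other members. Mitochondrial members summed to 490.5 ± 10.96 RPKM with DMSO and 404.1 ± 18.4 with 611, 1.21-fold lower, and the others to 4937 ± 145.4 and 3991 ± 91.4 RPKM, 1.24-fold lower. No test of the difference between the compartments over genes was run.

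Paired enzymes of the same reaction give a comparison within each library, which scaling cannot change. The ratio of Txn1 to Txn2 was 0.804 ± 0.02 with DMSO and 1.09 ± 0.072 with 611. The ratio of Txnrd1 to Txnrd2 was 4.17 ± 0.14 and 5.31 ± 0.36, and that of Prdx1 to Prdx3 was 3.29 ± 0.17 and 3.89 ± 0.20. In these 3 pairs the cytosolic enzyme gained on the mitochondrial one in every 611 culture. The ratio of Sod1 to Sod2 moved the same way by less, from 7.65 ± 0.34 to 8.25 ± 0.13, without overlap. Glrx to Glrx2 moved the other way, from 27.6 ± 1.9 to 24.9 ± 0.95. 

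**Figure D3:**
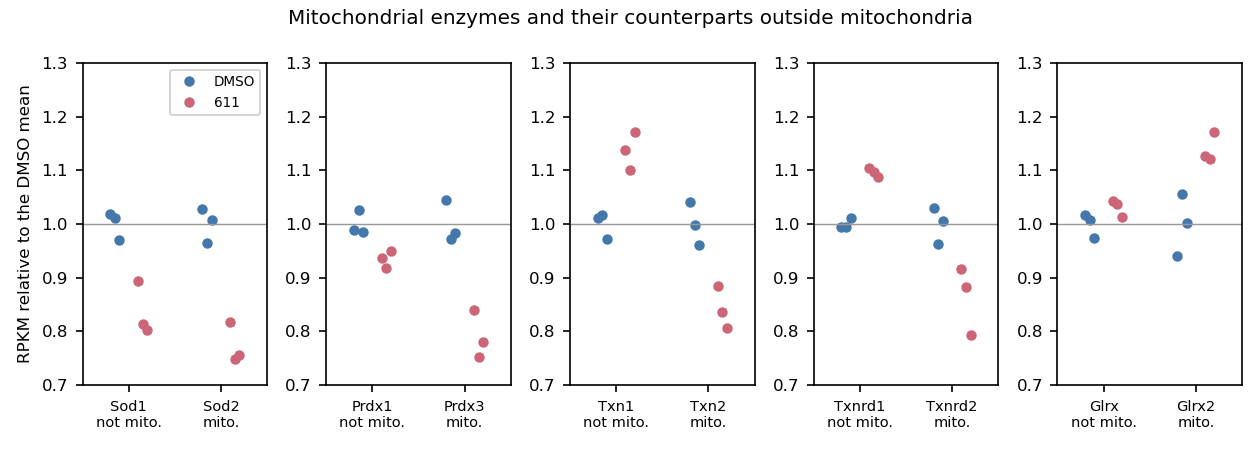
RPKM of each library divided by the DMSO mean of the gene, for 5 pairs of a mitochondrial enzyme and its counterpart outside mitochondria; the axis does not start at 0. The 611 cultures lie above 1 for Txn1 and Txnrd1 and below it for Txn2 and Txnrd2, while both members of the Sod1 and Sod2 pair lie below 1.

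The wider pathway was counted from lists of genes that are not members. For comparison, 41.6% of all genes tested were higher and 17.7% lower, and 28.5% and 28.6% after scaling. Of 10 NRF2 partners and regulators, 3 rose and 3 fell, at a median log2 fold change of -0.02. After scaling 2 were higher and 5 lower. Bach1, a repressor that competes with NRF2 for its sites, rose from 7.09 ± 0.140 to 8.70 ± 0.263 RPKM (adjusted p = 0.0014). Of the small MAF partners, Maff and Mafg fell, Maff from 6.35 ± 0.487 to 3.78 ± 0.609 RPKM (adjusted p = 4.5e-04) and Mafg from 30.3 ± 1.19 to 23.4 ± 0.702 RPKM (adjusted p = 1.2e-04). Mafk, the third small MAF gene, was named after its values were seen: it was at 4.18 ± 0.154 and 4.09 ± 0.282 RPKM, with overlap and an adjusted p of 0.74. Nfe2l1, a related factor, fell from 141.1 ± 4.61 to 114 ± 3.34 RPKM (adjusted p = 2e-04).

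Of 21 further NRF2 target genes, 9 were higher and 8 lower (median 0.10, the same as over all genes), and after scaling 8 were higher and 8 lower. Hmox1, heme oxygenase, rose from 44.4 ± 2.19 to 66.1 ± 4.62 RPKM (adjusted p = 4.7e-05). Slc7a11, which imports the cystine needed for glutathione, rose from 3.24 ± 0.125 to 6.13 ± 0.168 RPKM (adjusted p = 6.3e-06). Ptgr1 and Akr1b8, which reduce reactive carbonyl compounds, rose 1.87-fold and 1.77-fold. The carbonyl reductases moved against them: Cbr3 fell from 152.4 ± 11.7 to 77.3 ± 4.84 RPKM (adjusted p = 4.1e-06) and Cbr1 from 96.2 ± 2.96 to 56.0 ± 2.10 RPKM (adjusted p = 1.5e-06).

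Genes of NADPH supply mostly fell. Of their 12 tested genes, 10 fell and 1 rose (median -0.27), and after scaling 11 were lower and none was higher. Tkt, transketolase of the pentose phosphate pathway, fell from 134.7 ± 6.00 to 86.2 ± 5.78 RPKM (adjusted p = 1.7e-05). Me1, malic enzyme, fell from 275.8 ± 1.92 to 198.4 ± 10.1 RPKM (adjusted p = 2.5e-05), and Pgd, the second NADPH-yielding dehydrogenase of the pentose phosphate pathway, from 171.4 ± 3.65 to 129.4 ± 9.40 RPKM (adjusted p = 1.9e-04). G6pdx, the first of them, was at 105.2 ± 3.48 and 93.5 ± 6.74 RPKM (adjusted p = 0.022), a call that was lost without DMSO replicate 1 (0.08), 611 replicate 2 (0.077) or 611 replicate 3 (0.078), with 0.002 to 0.08 over the alternatives. Idh2, the mitochondrial isocitrate dehydrogenase, was the 1 that rose, and its log2 fold change after scaling was 0.02 (adjusted p = 0.68, with 0.0023 to 0.68 over the alternatives).

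Of 14 other glutathione transferases, 3 rose and 4 fell (median 0.02; 2 and 5 after scaling). Gstt3, the theta-class neighbour in kind of Gstt1, rose from 1.03 ± 0.281 to 2.31 ± 0.734 RPKM (adjusted p = 0.0062). Gstz1, which works in tyrosine breakdown, fell from 101.2 ± 0.612 to 61.1 ± 0.781 RPKM (adjusted p = 6.9e-07). Of 12 genes of glutathione transport and breakdown, 3 rose and 5 fell (median -0.07; 1 and 8 after scaling). Slc25a39, which carries glutathione into mitochondria, fell from 121.2 ± 6.61 to 90.9 ± 4.66 RPKM (adjusted p = 1.7e-04). Its paralogue Slc25a40 was called higher, at 4.79 ± 0.265 and 5.60 ± 0.383 RPKM (adjusted p = 0.031), and was not called after scaling (adjusted p = 0.43, with 0.016 to 0.43 over the alternatives). Cth, which makes cysteine from cystathionine, fell from 4.67 ± 0.252 to 2.57 ± 0.189 RPKM (adjusted p = 3.5e-05).

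Of 14 methionine sulfoxide reductases and other redox proteins, 6 rose and 5 fell (median 0.01; 4 and 8 after scaling). Msrb3, a reductase of the endoplasmic reticulum and mitochondria, rose 1.56-fold, and Msra and Msrb2 fell 1.55-fold and 1.5-fold. Of 18 selenoproteins and genes that make selenocysteine, 8 rose and 4 fell (median 0.05; 7 and 8 after scaling). Selenom, a redox protein of the endoplasmic reticulum, rose from 8.72 ± 1.83 to 28.7 ± 3.71 RPKM (adjusted p = 1.2e-05). Selenon, of the same compartment, rose from 8.04 ± 0.782 to 20.0 ± 1.16 RPKM (adjusted p = 2e-06). Sepsecs fell from 12.0 ± 0.494 to 8.19 ± 0.290 RPKM (adjusted p = 3.9e-05). Smaller decreases were called for Selenos and Sephs2 (adjusted p = 0.0044 for each).

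Of 9 tested enzymes that produce oxidants, 4 rose and 3 fell, also after scaling (median 0.05 before it). Maoa, monoamine oxidase A of the outer mitochondrial membrane, rose from 32.7 ± 0.863 to 64.6 ± 3.49 RPKM (adjusted p = 9.4e-07). Xdh, xanthine dehydrogenase, rose from 8.99 ± 0.521 to 16.9 ± 0.632 RPKM (adjusted p = 3.2e-06). Ero1a, which makes hydrogen peroxide while forming disulfides in the endoplasmic reticulum, fell from 40.02 ± 4.55 to 23.4 ± 1.16 RPKM (adjusted p = 5.3e-05). Of the peroxidases of that compartment described above, Gpx8 fell and Prdx4 rose.

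**Figure D4:**
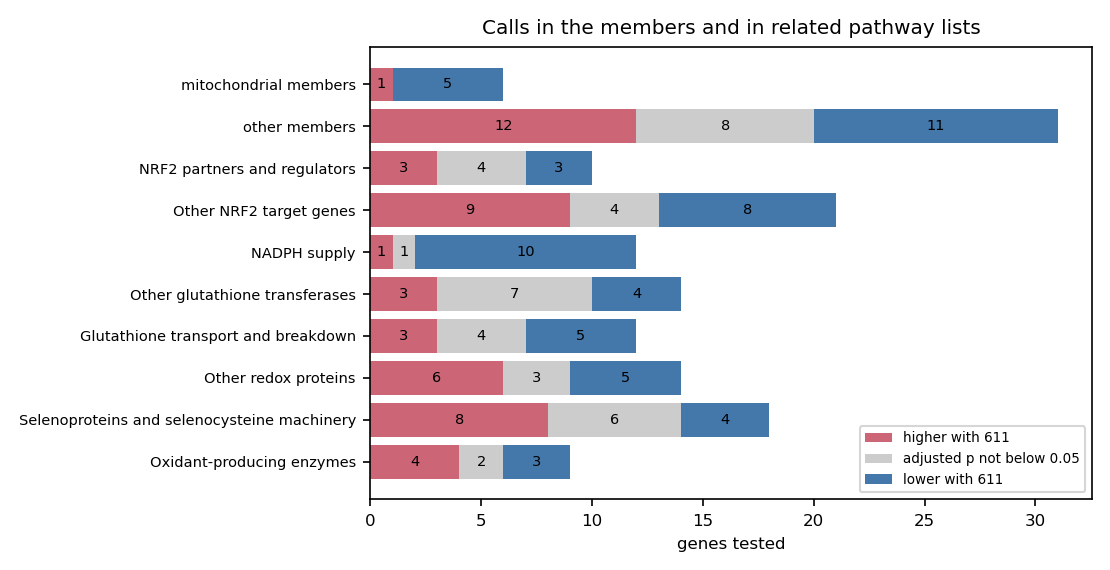
Number of tested genes called higher, not called or called lower with 611 among the mitochondrial members, the other members and 8 related lists. NADPH supply has 10 of 12 genes lower, and the mitochondrial members 5 of 6, while 17.7% of all genes tested were lower.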

How the data were processed

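Transcriptomes of 6 cultures were used, 3 with DMSO and 3 with 611, grouped by their titles. Each library has 1 table deposited by the authors, in which 28430 RefSeq transcripts have an RPKM value. Per the submitters' processing notes, TopHat2 2.0.12, TopHat and SAMtools were used with the mm9 build. Which program made the RPKM values, on which annotation and with which strand setting, is not stated in the labels or notes used here. Accessions were matched to symbols in a RefSeq table (27789 of 28430), and the transcript with the highest mean stood for its gene. Library totals were recovered from low values, taking the total that put most of them on whole reads; 52.6% to 55% of the low values of a library were then whole within 0.02. The totals serve only for read counts and floors of 3 reads, which cover counting error only.

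The fit used limma 3.58.1 (R 4.3.3) with trend on log2(RPKM + 1), group as the only term, over the 13829 genes with at least 0.1 RPKM in at least 3 libraries. P-values were adjusted by Benjamini-Hochberg over all of them, with a threshold of 0.05. Fold changes on this scale understate those of low genes. The fit was tested on simulated data. Same-numbered libraries deviated together across genes (r = 0.30, 0.30 and 0.18), so a fit with the replicate block was an alternative. The main fit did not use the replicate numbers. The other alternatives were pseudocount, filter, scaling, summed transcripts and leaving out each library. The members and lists were chosen with earlier results of these data known: all 39 members are described, with values per library for the regulators, the largest changes, the highest member of each role and the mitochondrial members, and up to 3 genes per direction of each other list, besides Hmox1, Slc7a11 and G6pdx, which were named whatever their values. Of 199 list entries 196 matched a symbol.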

Additional observations from a re-analysis of the deposited data

How the results depend on the processing

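Of 443 comparisons over the 37 tested members and the alternatives, 413 kept their direction and side of the threshold, and 22 members did so throughout. Scaling by median of ratios lowers 611 values relative to DMSO by construction. It left 8 members higher, 0 mitochondrial members higher and 3962 of all genes lower, and moved the medians to -0.38 (mitochondrial) and -0.10 (others). It reversed the log2 fold changes of Keap1 (-0.10), Prdx2 (-0.03), Prdx6 (-0.10), Txnrd1 (-0.02), Gclc (-0.11), Gclm (-0.05) and Glrx (-0.11). Without a filter on low values, more genes were tested and 0 mitochondrial members were higher. Leaving out each library in turn gave 0 to 1 mitochondrial members higher, a median of the others from 0.01 to 0.05, and ranges that crossed 0 for Gpx1 (-0.04 to 0.01), Gpx3 (-0.06 to 0.03) and Gclc (-0.01 to 0.06). With the replicate block, all genes called higher with 611 numbered 6169 and all genes called lower with 611 numbered 2700. The block called 17 members lower instead of 16, and Prdx1 was the only member whose call changed (adjusted p = 0.043). The causes of the other changes were not tested. Depth limits Gpx3 and Gpx7, at 11 reads or fewer per library.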
